A study of Homo sapiens with 40 samples.

Results

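The response of hTERT-RPE1 cells to knockdown of NPAT was read from 4 of the 40 arrays of the series, chosen by their labels: 2 arrays of cells that received NPAT siRNA and 2 of cells that received control siRNA, all collected on day 3 after transfection. hTERT-RPE1 is a normal human line from retinal pigment epithelium that divides without limit because it carries telomerase, and the study set it beside U2OS, a human osteosarcoma line. Both groups were transfected at plating with a pool of siRNAs at 15 nM, the control pool being one designed to match no human gene. Both arrays of a group came from parallel transfections, and the p-values therefore measure the spread between such arrays and not that between separate experiments. Each array gave 1 level on the log2 scale for each of 22069 genes, and all of these genes were tested.

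NPAT is a coactivator of histone genes. It is phosphorylated by cyclin E with CDK2 at the start of S phase, and it gathers at the histone locus body, the nuclear site where the clustered replication-dependent histone genes are transcribed and their transcripts processed without a poly(A) tail. CASP8AP2 (FLASH) is another component of this body, and HINFP is a zinc finger factor that binds histone H4 promoters and recruits NPAT. The arrays were made to learn what losing each of the 3 proteins does to histone genes in normal and tumor cells.

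Levels of the 4 arrays had medians between 5.24 and 5.26. The pair of arrays correlated across genes with r = 0.995 for control and r = 0.997 for NPAT siRNA, and the median SD of a pair was 0.096 for control and 0.071 for NPAT siRNA. A symbol could be given for 1920 of the 22069 genes (8.70%), by way of tables in which the authors listed both names. None of the 65 replication-dependent histone genes looked for was among them, so no gene is identified here as one of them. Of 15 marker genes of retinal pigment epithelium, RLBP1 (cellular retinaldehyde binding protein) and BEST1 (bestrophin) had a symbol, and both lay near the bottom of the scale, between 3.74 and 4.15 in the 4 arrays, where the lowest value of any gene was 2.32. The 5 named markers of blood, endothelial and other cell types lay between 3.29 and 4.76, and no marker of these types was called.

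NPAT itself (ENSG00000149308) read 8.44 and 8.28 in the control arrays and 7.06 and 7.03 in the NPAT siRNA arrays. Both NPAT siRNA arrays lay below both control arrays, with a log2 fold change of -1.31 ± 0.11 (SE), adjusted p = 3.7e-05 in limma with Benjamini-Hochberg adjustment over all genes, which left 40.3% of the control level. In the same line NPAT read 8.40 and 8.39 under CASP8AP2 siRNA and 8.24 and 8.47 under HINFP siRNA. CASP8AP2 read 7.51 and 7.47 in the control arrays and 7.39 and 7.33 in the NPAT siRNA arrays, a difference of -0.13 ± 0.11 (SE), adjusted p = 0.57. HINFP read 7.15 and 7.33 in the control arrays and 7.07 and 7.09 in the NPAT siRNA arrays, a difference of -0.16 ± 0.15 (SE), adjusted p = 0.62. Neither of these partners of NPAT was called. In a bulk culture, fewer cells that express a gene and less of its RNA per cell cannot be told apart, and this holds for every difference given here.

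NPAT siRNA changed 1112 of the 22069 genes at an adjusted p under 0.05 (5.04%), of which 522 were higher (2.37%) and 590 lower (2.67%) than in control cells. The balance of rises and falls depended on the processing, since cyclic loess normalization gave 623 higher and 499 lower, and no direction is read from it. Of the 76 called genes that changed by at least 1 on the log2 scale (0.344%), 66 were higher and 10 were lower. The genes called higher had a median log2 fold change of 0.55 and a median control level of 6.96, and those called lower had a median of -0.49 and a median control level of 7.98. Of the 66 large rises, 29 started in control cells from a level under the median of all genes (5.25), and 0 of the 10 large falls did. The median over all genes was -0.03. In all 1112 called genes both NPAT siRNA arrays lay beyond both control arrays, as they did in 47.3% of all genes. The count rested on both NPAT siRNA arrays, since 235 genes (142 higher and 93 lower) were called without NPAT siRNA replicate 1 and 451 without NPAT siRNA replicate 2. A fit of only these 4 arrays called 149 genes, of which 112 were higher and 37 lower.

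**Figure D1:**
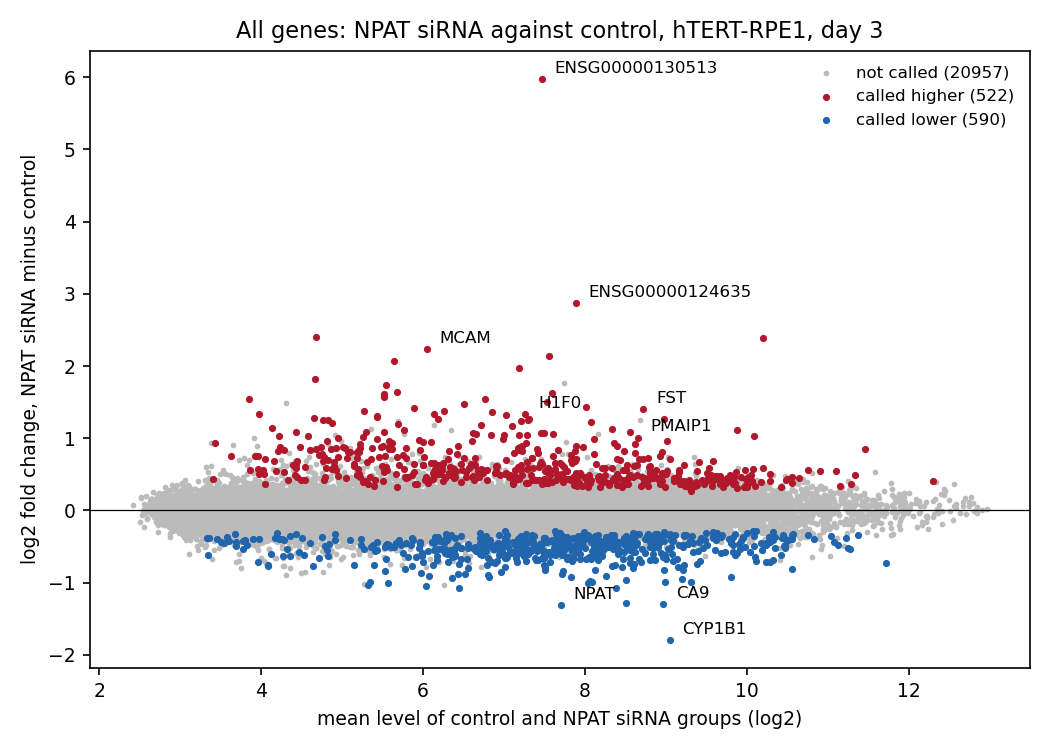
Each point is 1 of 22069 genes, with the mean level of the control and NPAT siRNA groups (log2) on the horizontal axis and the log2 fold change of NPAT siRNA over control on the vertical axis; red and blue points are the 522 genes called higher and the 590 called lower. The highest points lie far above 1, while few called falls lie below -1.

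The largest rise of any gene was that of ENSG00000130513, which has no paired symbol here. It read 4.39 and 4.56 in the control arrays and 10.26 and 10.64 in the NPAT siRNA arrays, a difference of 5.98 ± 0.20 (SE), adjusted p = 6.5e-09. The next was ENSG00000124635, also without a symbol, with 6.46 and 6.45 in the control arrays and 9.36 and 9.30 in the NPAT siRNA arrays and a difference of 2.87 ± 0.11 (SE), adjusted p = 1.3e-08. The largest falls among genes without a symbol were those of ENSG00000170345, which read 9.11 and 9.19 in the control arrays and 7.78 and 7.95 in the NPAT siRNA arrays (-1.28 ± 0.12 (SE), adjusted p = 7.2e-05), and ENSG00000198553, which read 6.74 and 7.20 in the control arrays and 5.95 and 5.85 in the NPAT siRNA arrays (-1.07 ± 0.15 (SE), adjusted p = 0.0017). All 4 kept their calls when any of the 4 arrays was left out. Among the 1920 genes with a symbol, 135 were called (7.03%), 72 higher and 63 lower.

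The named rises and falls are given by known role for reading only, and no such grouping was tested. MCAM (ENSG00000076706), an adhesion molecule of the immunoglobulin family also known as CD146, rose the most. It read 4.92 and 4.95 in the control arrays and 7.09 and 7.24 in the NPAT siRNA arrays, a difference of 2.23 ± 0.10 (SE), adjusted p = 8.2e-08, or 4.69-fold. CD82, a tetraspanin of the plasma membrane, read 7.72 and 8.07 in the control arrays and 8.76 and 8.89 in the NPAT siRNA arrays (0.93 ± 0.15 (SE), adjusted p = 0.0038). LAMB3, a beta chain of basement membrane laminin, read 6.54 and 6.94 in the control arrays and 7.63 and 7.58 in the NPAT siRNA arrays (0.87 ± 0.15 (SE), adjusted p = 0.0067). The NPAT siRNA arrays of these genes sat close together and above both control arrays, but the call of LAMB3 was lost without NPAT siRNA replicate 1 (0.84, adjusted p = 0.070). COL8A1, a short-chain collagen, read 7.06 and 6.90 in the control arrays and 7.95 and 7.72 in the NPAT siRNA arrays (0.86 ± 0.10 (SE), adjusted p = 0.00055).

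A channel gene and a scaffold gene rose as well. SCN9A, a voltage-gated sodium channel subunit, read 7.52 and 7.71 in the control arrays and 8.67 and 8.55 in the NPAT siRNA arrays (0.99 ± 0.10 (SE), adjusted p = 0.00016). MPP4, a membrane-associated guanylate kinase known from photoreceptors, read 6.52 and 7.00 in the control arrays and 7.70 and 7.92 in the NPAT siRNA arrays (1.05 ± 0.17 (SE), adjusted p = 0.0038). The control arrays of MPP4 differed more from each other than those of SCN9A, and the NPAT siRNA arrays lay above the higher of them. The call of MPP4 was lost where the 4 arrays were fitted alone (adjusted p = 0.065).

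FST and IGFBP2 encode secreted proteins. FST, follistatin, which binds and neutralises activin, read 7.94 and 8.10 in the control arrays and 9.41 and 9.43 in the NPAT siRNA arrays, a difference of 1.40 ± 0.10 (SE), adjusted p = 1.0e-05, or 2.65-fold. IGFBP2, which binds insulin-like growth factors, read 6.21 and 6.04 in the control arrays and 6.94 and 7.25 in the NPAT siRNA arrays (0.97 ± 0.16 (SE), adjusted p = 0.0045). CYP11A1, the mitochondrial enzyme that cuts the side chain of cholesterol in steroid synthesis, rose from a low level. It read 4.38 and 4.29 in the control arrays and 5.30 and 5.30 in the NPAT siRNA arrays (0.97 ± 0.10 (SE), adjusted p = 0.00030), and its NPAT siRNA arrays were nearly equal.

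Among the rises tied to chromatin and cell death, H1F0 (ENSG00000189060) encodes H1.0, a replacement linker histone made outside S phase and known to accumulate in cells that stop dividing. It read 6.60 and 6.59 in the control arrays and 7.78 and 8.08 in the NPAT siRNA arrays, and its difference of 1.34 ± 0.16 (SE), adjusted p = 0.00054, was 2.53-fold. PMAIP1, which encodes the BH3-only protein NOXA and is a target of p53, read 8.09 and 8.20 in the control arrays and 9.17 and 9.15 in the NPAT siRNA arrays, a difference of 1.01 ± 0.12 (SE), adjusted p = 0.00047. The arrays of both genes lay clearly apart between the groups, and both kept their calls when any of the 4 arrays was left out.

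**Figure D2:**
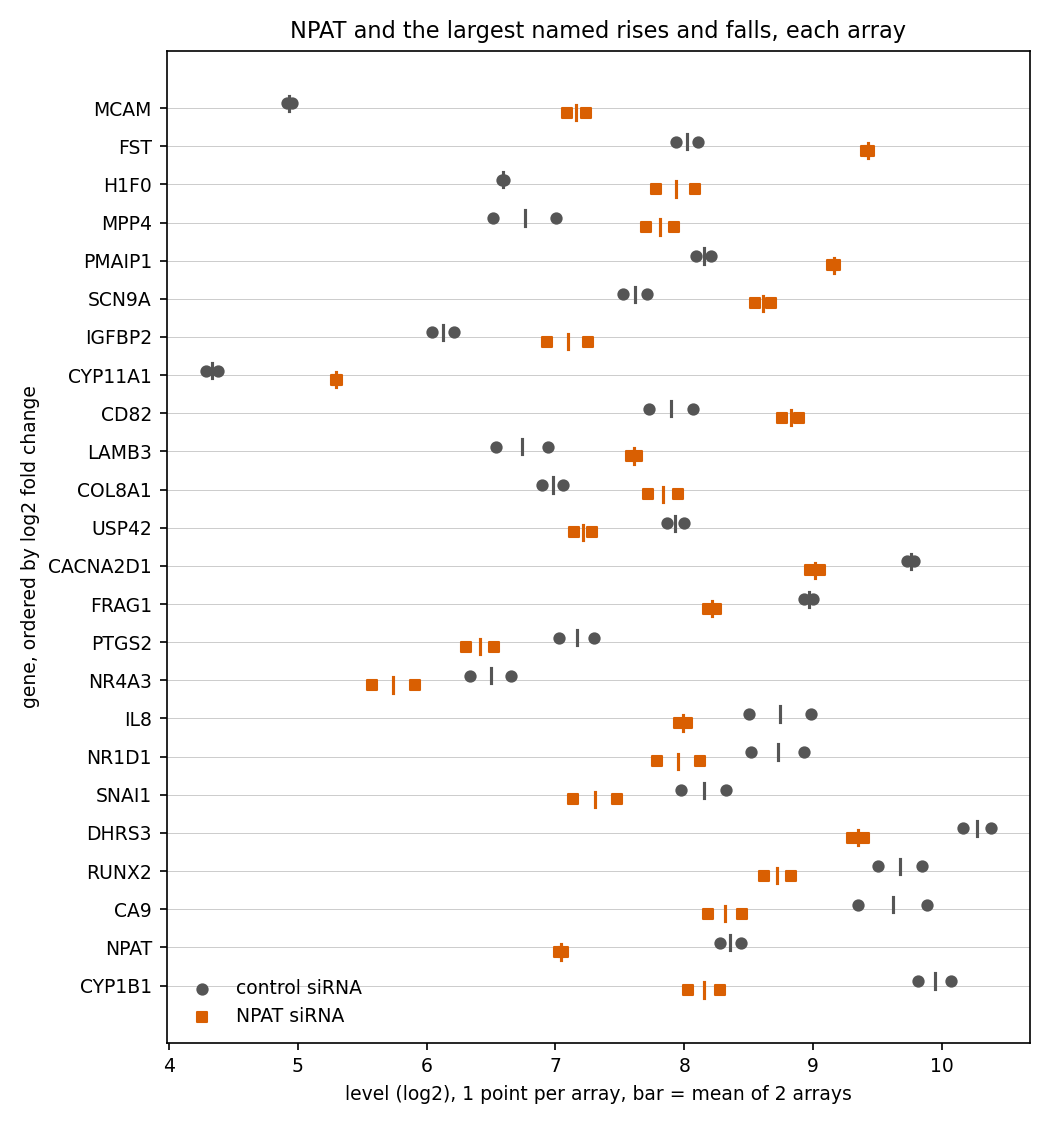
Levels (log2, horizontal axis) of NPAT, 11 of the 12 largest named rises and the 12 largest named falls in each of the 2 control siRNA arrays (circles) and 2 NPAT siRNA arrays (squares), with a bar at each mean; genes are ordered by log2 fold change. No gene shown has overlapping groups. The control arrays of several genes, among them RUNX2, CA9, IL8, MPP4, LAMB3 and CD82, differ from each other more than their NPAT siRNA arrays do.

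The largest fall of any gene was that of CYP1B1 (ENSG00000138061), a cytochrome P450 that oxidises estrogens, polycyclic hydrocarbons and retinoids and is a target of the aryl hydrocarbon receptor. It read 9.82 and 10.07 in the control arrays and 8.03 and 8.27 in the NPAT siRNA arrays, a difference of -1.79 ± 0.16 (SE), adjusted p = 6.5e-05. Of 9 named genes of retinoid metabolism, 3 fell as well, against 2.67% of all genes and 63 of the 1920 genes with a symbol. DHRS3, which reduces retinal to retinol, read 10.16 and 10.37 in the control arrays and 9.30 and 9.39 in the NPAT siRNA arrays (-0.92 ± 0.13 (SE), adjusted p = 0.0015). ALDH1A3, which oxidises retinal to retinoic acid, read 10.50 and 10.78 in the control arrays and 9.85 and 9.99 in the NPAT siRNA arrays (-0.71 ± 0.14 (SE), adjusted p = 0.011). RARA, a receptor of retinoic acid, read 8.40 and 8.36 in the control arrays and 7.91 and 7.90 in the NPAT siRNA arrays (-0.47 ± 0.08 (SE), adjusted p = 0.0070). The other 6 had log2 fold changes between -0.03 and 0.08, and the median of the 9 was -0.02, against -0.03 over all genes. The call of ALDH1A3 was lost without control replicate 2 or NPAT siRNA replicate 1 (-0.64 to -0.57, adjusted p = 0.071 to 0.12), and that of RARA without NPAT siRNA replicate 1 (-0.47, adjusted p = 0.063).

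CA9 (ENSG00000107159), carbonic anhydrase IX, a membrane enzyme that is a standard marker of the hypoxia response, read 9.88 and 9.35 in the control arrays and 8.18 and 8.45 in the NPAT siRNA arrays. Both NPAT siRNA arrays lay below both control arrays, with a difference of -1.30 ± 0.18 (SE), adjusted p = 0.0018. The control arrays differed by more than the NPAT siRNA arrays, and the call was kept without either of them. None of the other 3 named genes of the hypoxia list was called: LDHA, lactate dehydrogenase A, read 12.22 and 12.31 in the control arrays and 12.19 and 12.19 in the NPAT siRNA arrays (-0.08 ± 0.10 (SE), adjusted p = 0.74), LOX, a lysyl oxidase, read 11.12 and 11.25 in the control arrays and 11.50 and 11.50 in the NPAT siRNA arrays (0.31 ± 0.11 (SE), adjusted p = 0.11), and P4HA2, a prolyl hydroxylase of collagen, differed by 0.19 ± 0.11 (SE), adjusted p = 0.40. The promoter of CA9 is shown because it is the classical example of a promoter under hypoxia control. It is the RefSeq sequence from 250 bases before to 50 bases after the gene start, on the plus strand of chr9:35673678-35673977 in GRCh38.p14, with the core of the hypoxia response element, ACGTG, in capitals as read on the opposite strand.
CA9 promoter: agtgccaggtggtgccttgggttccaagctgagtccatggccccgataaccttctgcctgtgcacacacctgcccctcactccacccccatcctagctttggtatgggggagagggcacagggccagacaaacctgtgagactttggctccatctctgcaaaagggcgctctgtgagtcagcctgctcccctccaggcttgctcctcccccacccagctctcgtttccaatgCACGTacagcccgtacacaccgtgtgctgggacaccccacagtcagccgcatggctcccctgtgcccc
It held 1 match, 18 to 14 bases before the gene start. The same letters, searched on both strands, stand in 7518 of 35116 RefSeq promoters of this length (21.4%).

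RUNX2, SNAI1, NR4A3 and NR1D1 encode transcription factors. RUNX2, the master factor of bone formation, read 9.84 and 9.50 in the control arrays and 8.62 and 8.82 in the NPAT siRNA arrays (-0.95 ± 0.19 (SE), adjusted p = 0.014). IBSP, the other named member of the 10 bone lineage markers, stayed near the bottom of the scale (3.52 and 3.64 in the control arrays and 3.73 and 3.87 in the NPAT siRNA arrays) and was not called. SNAI1, a repressor of E-cadherin, read 8.32 and 7.97 in the control arrays and 7.14 and 7.47 in the NPAT siRNA arrays (-0.84 ± 0.13 (SE), adjusted p = 0.0035). NR4A3, an orphan nuclear receptor induced early by many stimuli, read 6.66 and 6.34 in the control arrays and 5.58 and 5.91 in the NPAT siRNA arrays (-0.75 ± 0.13 (SE), adjusted p = 0.0056). NR1D1, the circadian repressor REV-ERB alpha, read 8.93 and 8.52 in the control arrays and 7.79 and 8.12 in the NPAT siRNA arrays (-0.77 ± 0.14 (SE), adjusted p = 0.0073). These calls depended on single arrays. That of RUNX2 was lost without control replicate 1 or NPAT siRNA replicate 1 (-0.85 to -0.78, adjusted p = 0.082 to 0.13), that of SNAI1 without NPAT siRNA replicate 1 (-0.68, adjusted p = 0.052), that of NR4A3 without NPAT siRNA replicate 1 (-0.59, adjusted p = 0.077), and that of NR1D1 without NPAT siRNA replicate 1 (-0.61, adjusted p = 0.099).

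Of 11 named genes on the list of NF-kB targets, cytokines and chemokines, 2 fell and 0 rose, against 2.67% of all genes called lower. Of the 1920 genes with a symbol, 63 were called lower. IL8, the chemokine CXCL8 that attracts neutrophils, read 8.50 and 8.98 in the control arrays and 7.96 and 8.02 in the NPAT siRNA arrays (-0.76 ± 0.18 (SE), adjusted p = 0.030). PTGS2, cyclooxygenase 2, read 7.03 and 7.30 in the control arrays and 6.31 and 6.52 in the NPAT siRNA arrays (-0.75 ± 0.12 (SE), adjusted p = 0.0041). NFKB1, which encodes the p105 and p50 subunits, read 8.43 and 8.67 in the control arrays and 8.52 and 8.53 in the NPAT siRNA arrays (-0.03 ± 0.09 (SE), adjusted p = 0.92). TNFAIP3, the A20 inhibitor of NF-kB signalling, differed by -0.23 ± 0.12 (SE), adjusted p = 0.32, and TNFAIP2 by 0.40 ± 0.13 (SE), adjusted p = 0.10. The median of the list was -0.18. The call of IL8 was lost without control replicate 2, NPAT siRNA replicate 1 or NPAT siRNA replicate 2 (-0.79 to -0.52, adjusted p = 0.11 to 0.18). That of PTGS2 was lost without NPAT siRNA replicate 1 (-0.64, adjusted p = 0.062).

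The remaining falls by the rule were of varied function. CACNA2D1, an auxiliary subunit of voltage-gated calcium channels, read 9.73 and 9.78 in the control arrays and 8.97 and 9.05 in the NPAT siRNA arrays (-0.74 ± 0.10 (SE), adjusted p = 0.0015). FRAG1, a gene of GPI anchor remodelling, read 8.93 and 9.00 in the control arrays and 8.25 and 8.18 in the NPAT siRNA arrays (-0.75 ± 0.14 (SE), adjusted p = 0.0081), and its call was lost without NPAT siRNA replicate 1 or NPAT siRNA replicate 2 (-0.78 to -0.72, adjusted p = 0.059 to 0.060). USP42, a deubiquitinase, read 7.86 and 8.00 in the control arrays and 7.14 and 7.28 in the NPAT siRNA arrays (-0.72 ± 0.10 (SE), adjusted p = 0.0017). Its call was lost where the 4 arrays were fitted alone (adjusted p = 0.052).

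Gene lists covering histone supply, replication, the p53 response and other pathways had 146 different members with a symbol, of which 23 were called (15.8%, against 7.03% of all genes with a symbol), 15 higher and 8 lower. NPAT is counted among the 8. Both the lists and their members were chosen with earlier results of these data known, so these shares are no test of the lists. Of 28 lists, 6 had no named member, and 13 of the other 22 held at least 1 called gene. The share set beside single lists is that of all genes. Among the 1920 genes with a symbol, 72 were called higher and 63 lower, a larger part than of all genes.

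On the list of histone gene transcription and the histone locus body, 8 of 17 genes had a symbol and NPAT was the sole member called, against 5.04% of all genes. Cyclin E genes lay on opposite sides: CCNE1 read 7.13 and 6.81 in the control arrays and 6.79 and 6.67 in the NPAT siRNA arrays (-0.24 ± 0.12 (SE), adjusted p = 0.32) and CCNE2 read 8.64 and 8.37 in the control arrays and 8.98 and 8.88 in the NPAT siRNA arrays (0.43 ± 0.16 (SE), adjusted p = 0.15), and neither was called. E2F1, which drives S phase genes, differed by -0.28 ± 0.12 (SE), adjusted p = 0.20, and POU2F1, the octamer factor of histone H2B promoters, by -0.22 ± 0.11 (SE), adjusted p = 0.29. Of the replacement histones, H2AFX (H2A.X, the variant phosphorylated at DNA breaks) read 9.30 and 9.43 in the control arrays and 9.26 and 9.19 in the NPAT siRNA arrays (-0.14 ± 0.10 (SE), adjusted p = 0.48) and was not called, while H1F0 rose as given above. None of 4 named histone chaperones was called. RBBP7 and RBBP4, subunits shared by chromatin assembly and histone modifying complexes, differed by 0.19 ± 0.08 (SE), adjusted p = 0.21 and by 0.33 ± 0.10 (SE), adjusted p = 0.091, and CHAF1B, a subunit of chromatin assembly factor 1, by -0.0039 ± 0.10 (SE), adjusted p = 0.99.

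Of 13 named members of the list of DNA synthesis and nucleotide supply, 3 rose and 0 fell, against 2.37% of all genes called higher. CLSPN (claspin), the adaptor of the replication checkpoint at the fork, read 7.12 and 7.38 in the control arrays and 7.91 and 7.76 in the NPAT siRNA arrays (0.59 ± 0.12 (SE), adjusted p = 0.013). RRM2, the small subunit of ribonucleotide reductase, read 9.79 and 9.80 in the control arrays and 10.33 and 10.25 in the NPAT siRNA arrays (0.49 ± 0.11 (SE), adjusted p = 0.019), and RRM1, its large subunit, read 10.30 and 10.24 in the control arrays and 10.75 and 10.63 in the NPAT siRNA arrays (0.42 ± 0.09 (SE), adjusted p = 0.018). The 3 uncalled members with the highest levels were RFC4 of the clamp loader (0.04 ± 0.11 (SE), adjusted p = 0.90), RPA1, which coats single-stranded DNA (0.22 ± 0.11 (SE), adjusted p = 0.33), and PRIM2 of primase (0.12 ± 0.09 (SE), adjusted p = 0.50). The lowest value, looked up after the values were seen, was that of FEN1, the flap endonuclease (-0.50 ± 0.18 (SE), adjusted p = 0.13), which was not called. The log2 fold change was above 0 in 10 of the 13, with a median of 0.12, against -0.03 over all genes. No direction of the list is read from this count, since the list was chosen with earlier results known. The call of CLSPN was lost without control replicate 1 or NPAT siRNA replicate 1 (0.46 to 0.51, adjusted p = 0.078 to 0.13). That of RRM2 was lost without any 1 of the 4 arrays (0.46 to 0.53, adjusted p = 0.065 to 0.15). That of RRM1 was lost without control replicate 2 or NPAT siRNA replicate 1 (0.36 to 0.39, adjusted p = 0.073 to 0.17).

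Origin licensing genes included 1 rise among 4 named members, against 2.37% of all genes called higher. It was that of CDC6, the loader of the MCM helicase, which read 9.12 and 9.17 in the control arrays and 9.55 and 9.48 in the NPAT siRNA arrays (0.37 ± 0.09 (SE), adjusted p = 0.031). MCM3 (0.00059 ± 0.11 (SE), adjusted p = 1.0), CDT1 (0.11 ± 0.13 (SE), adjusted p = 0.71) and CDC7 (0.13 ± 0.12 (SE), adjusted p = 0.61) were not called. Of 13 named genes of checkpoint and homologous repair, 2 rose and 0 fell, against 2.37% of all genes called higher. EXO1, an exonuclease of mismatch and break repair, read 8.41 and 8.75 in the control arrays and 9.11 and 9.01 in the NPAT siRNA arrays (0.48 ± 0.11 (SE), adjusted p = 0.025). BRCA2, a mediator of homologous recombination, read 7.20 and 7.17 in the control arrays and 7.74 and 7.49 in the NPAT siRNA arrays (0.43 ± 0.11 (SE), adjusted p = 0.036). RAD50 (0.19 ± 0.10 (SE), adjusted p = 0.33), BRIP1 (0.12 ± 0.13 (SE), adjusted p = 0.68) and BLM (0.37 ± 0.12 (SE), adjusted p = 0.097) were not called. The lowest value of this list, looked up after the values were seen, was that of RAD9A of the checkpoint clamp (-0.42 ± 0.11 (SE), adjusted p = 0.051), which was not called either. These were small changes on which single arrays weighed. The call of CDC6 was lost without any 1 of the 4 arrays (0.34 to 0.40, adjusted p = 0.070 to 0.20). That of EXO1 was lost without control replicate 1, NPAT siRNA replicate 1 or NPAT siRNA replicate 2 (0.31 to 0.53, adjusted p = 0.075 to 0.19). That of BRCA2 was lost without control replicate 1, control replicate 2 or NPAT siRNA replicate 1 (0.30 to 0.44, adjusted p = 0.086 to 0.29).

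None of the 8 named genes of mitosis and the spindle was called, and none of the 4 cyclins or the 4 CDK, RB and E2F genes. KIF11, the motor of spindle bipolarity, read 9.62 and 9.71 in the control arrays and 10.23 and 9.98 in the NPAT siRNA arrays (0.44 ± 0.13 (SE), adjusted p = 0.067). KIF23, a kinesin of the midbody, differed by 0.18 ± 0.11 (SE), adjusted p = 0.40, and HCAP-G, a condensin subunit also known as NCAPG, by 0.34 ± 0.10 (SE), adjusted p = 0.085. The log2 fold change was above 0 in 7 of the 8 mitosis genes, with a median of 0.17, against -0.03 over all genes. The list was chosen with earlier results known, so no direction is read from this count. Cyclin A2, CCNA2, read 9.70 and 9.92 in the control arrays and 10.19 and 10.00 in the NPAT siRNA arrays (0.28 ± 0.12 (SE), adjusted p = 0.21). WEE1, the kinase that holds CDK1 inactive, differed by 0.04 ± 0.10 (SE), adjusted p = 0.87, and RBL1, the RB relative p107, by 0.01 ± 0.10 (SE), adjusted p = 0.97.

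Targets of p53 gave 2 rises among 8 named genes of apoptosis, PMAIP1 and APAF1, against 2.37% of all genes called higher. APAF1, the scaffold of the apoptosome, read 6.93 and 7.36 in the control arrays and 7.83 and 7.75 in the NPAT siRNA arrays (0.64 ± 0.12 (SE), adjusted p = 0.011). Other members of the list were not called: BAX read 9.21 and 9.21 in the control arrays and 9.00 and 9.13 in the NPAT siRNA arrays (-0.14 ± 0.08 (SE), adjusted p = 0.39), PERP read 10.02 and 10.16 in the control arrays and 9.89 and 9.71 in the NPAT siRNA arrays (-0.29 ± 0.13 (SE), adjusted p = 0.22), and BID differed by 0.05 ± 0.10 (SE), adjusted p = 0.84. The median was -0.03 over the 8 and also over all genes. Of 3 named genes of p53-dependent repair and metabolism, 1 rose, against 2.37% of all genes called higher. It was POLH, the translesion polymerase eta, which went from 9.18 and 9.16 to 9.54 and 9.58 (0.39 ± 0.08 (SE), adjusted p = 0.012). XPC (-0.06 ± 0.12 (SE), adjusted p = 0.84) and SULF2 (0.15 ± 0.15 (SE), adjusted p = 0.64) were not called. None of 4 named genes of arrest and feedback was called, among them GTSE1 (0.12 ± 0.09 (SE), adjusted p = 0.49) and TRIM22 (0.01 ± 0.16 (SE), adjusted p = 0.98). The principal arrest genes of this response had no paired symbol. The call of APAF1 was lost without control replicate 1 or NPAT siRNA replicate 1 (0.43 to 0.60, adjusted p = 0.057 to 0.11), and that of POLH without NPAT siRNA replicate 1 or NPAT siRNA replicate 2 (0.37 to 0.41, adjusted p = 0.077 to 0.080).

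Matrix genes gave 3 rises among 18 named members of their list, against 2.37% of all genes called higher. Beside COL8A1 these were HAS2, a hyaluronan synthase, which read 5.20 and 5.56 in the control arrays and 5.89 and 6.14 in the NPAT siRNA arrays (0.63 ± 0.17 (SE), adjusted p = 0.047), and COL6A3, a chain of collagen VI, which read 5.22 and 5.25 in the control arrays and 5.81 and 5.86 in the NPAT siRNA arrays (0.60 ± 0.11 (SE), adjusted p = 0.0097). The abundant matrix genes FN1, fibronectin (0.12 ± 0.12 (SE), adjusted p = 0.65), and TGFB2 (-0.03 ± 0.15 (SE), adjusted p = 0.95) were not called, and the median of the list was 0.02. The lowest value of the list, looked up after the values were seen, was that of TIMP1, an inhibitor of matrix proteases (-0.48 ± 0.13 (SE), adjusted p = 0.052), which was not called. Of 7 named regulators of Wnt and Notch signalling, 1 rose, against 2.37% of all genes called higher. It was DKK1, a secreted Wnt inhibitor, which went from 9.91 and 9.79 to 10.33 and 10.19 (0.41 ± 0.10 (SE), adjusted p = 0.035). SFRP1 (-0.14 ± 0.13 (SE), adjusted p = 0.62), NOTCH2 (0.17 ± 0.10 (SE), adjusted p = 0.39) and JAG1 (0.14 ± 0.12 (SE), adjusted p = 0.59) were not called. The call of HAS2 was lost without control replicate 1, NPAT siRNA replicate 1 or NPAT siRNA replicate 2 (0.46 to 0.76, adjusted p = 0.12 to 0.24). That of COL6A3 was lost without NPAT siRNA replicate 1 or NPAT siRNA replicate 2 (0.58 to 0.62, adjusted p = 0.065 to 0.070). That of DKK1 was lost without any 1 of the 4 arrays (0.34 to 0.48, adjusted p = 0.056 to 0.25).

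Of 9 named genes of sterol synthesis and uptake, 1 rose and 1 fell, against 2.37% of all genes called higher and 2.67% called lower. EBP, a sterol isomerase, read 8.24 and 8.22 in the control arrays and 8.63 and 8.52 in the NPAT siRNA arrays (0.35 ± 0.09 (SE), adjusted p = 0.039). DHCR7, which makes the last step to cholesterol, read 8.81 and 8.78 in the control arrays and 8.41 and 8.46 in the NPAT siRNA arrays (-0.36 ± 0.08 (SE), adjusted p = 0.022). FDFT1 (0.22 ± 0.08 (SE), adjusted p = 0.15) and SQLE (0.01 ± 0.11 (SE), adjusted p = 0.98) were not called. Without any 1 of the 4 arrays neither call stood, with the log2 fold change of EBP between 0.29 and 0.40 and that of DHCR7 between -0.38 and -0.34.

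The lists of the unfolded protein response, interferon-stimulated genes, complement and the protocadherin beta cluster held no called gene. Of 9 named genes of ATF4 and the unfolded protein response, the chaperone HSPA5 (BiP) differed by 0.24 ± 0.09 (SE), adjusted p = 0.16, CALR by 0.07 ± 0.09 (SE), adjusted p = 0.72 and PDIA4 by 0.14 ± 0.09 (SE), adjusted p = 0.41, and the 9 lay between -0.23 and 0.24. The 3 named members of the interferon list included STAT2 (0.24 ± 0.10 (SE), adjusted p = 0.17), and IFNB1, which was near the bottom of the scale (3.04 and 3.14 in the control arrays and 3.05 and 3.25 in the NPAT siRNA arrays). The 5 named members of the complement list lay between -0.17 and 0.31, among them the membrane inhibitors CD59 (-0.01 ± 0.12 (SE), adjusted p = 0.98) and CD55 (0.05 ± 0.09 (SE), adjusted p = 0.83), and C1QTNF1 (0.31 ± 0.13 (SE), adjusted p = 0.20). Both named protocadherin beta genes had values below 0, PCDHB5 with -0.54 ± 0.22 (SE), adjusted p = 0.19 and PCDHB1 with -0.33 ± 0.09 (SE), adjusted p = 0.056, and neither passed the test.

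**Figure D3:**
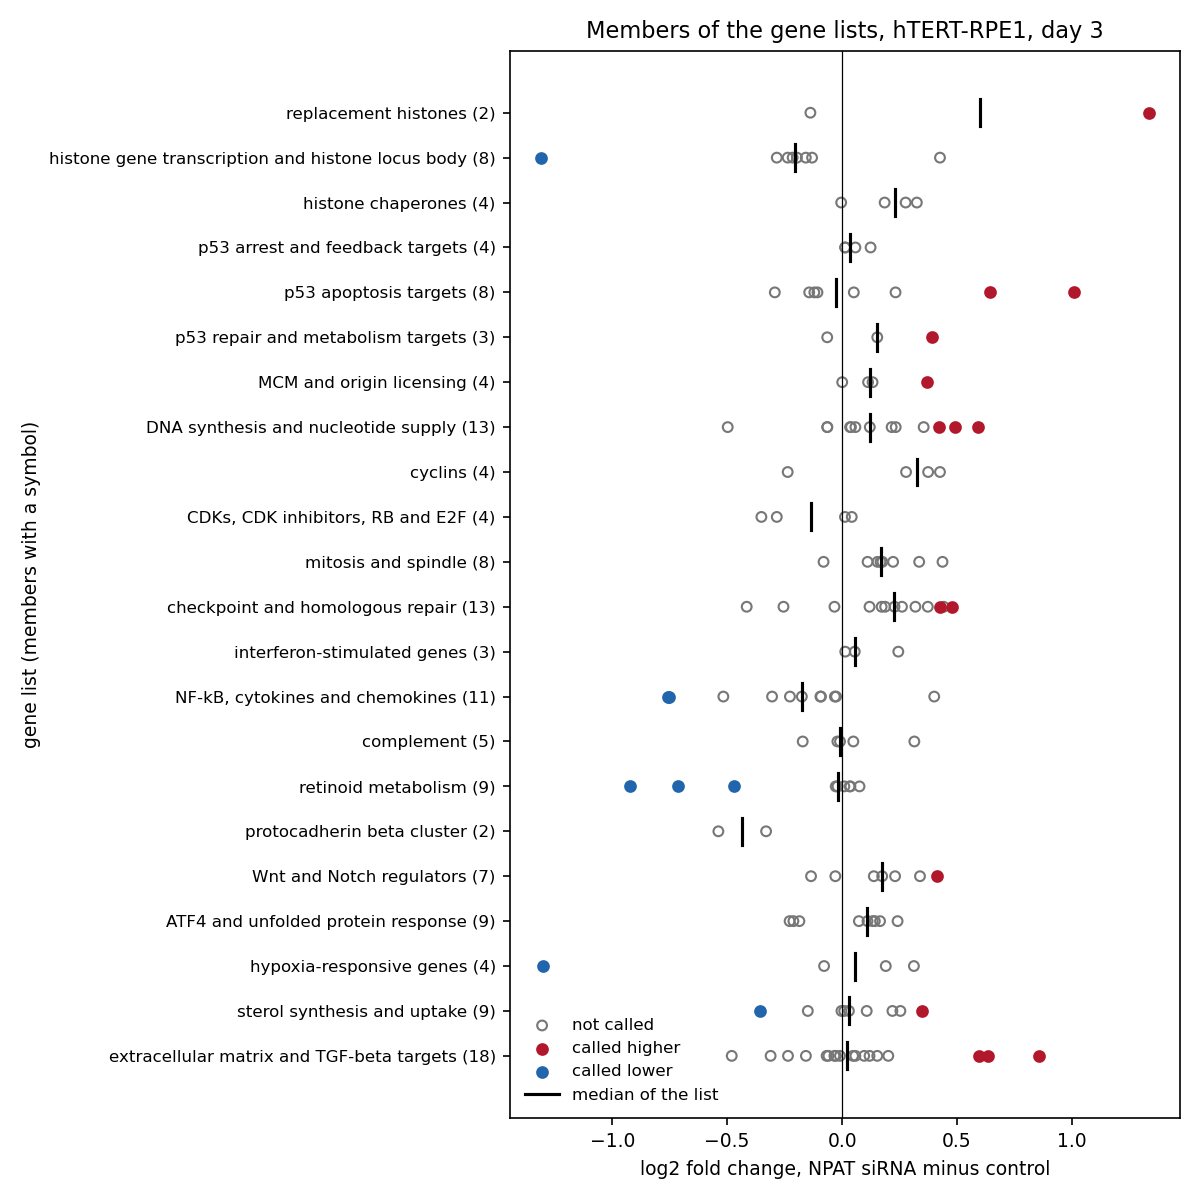
Log2 fold change of NPAT siRNA over control (horizontal axis) for every named member of the 22 gene lists with at least 1 symbol (vertical axis, number of named members in brackets); filled red and blue points are genes called higher and lower, open points were not called, and black bars are list medians. The medians lie between -0.21 and 0.33, except those of the replacement histones and the protocadherin beta cluster, and called members lie toward the ends of their lists.

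The other 2 knockdowns of the same line and day, each of 2 arrays, show where the NPAT response differs from theirs. Because the 3 siRNAs share the control arrays, they were compared with each other directly. NPAT siRNA against CASP8AP2 siRNA gave 525 called genes (2.38%), of which 137 were higher and 388 lower under NPAT siRNA. The 4 largest named differences were in genes with far higher levels under CASP8AP2 siRNA. CCNA1, cyclin A1, read 4.51 and 4.45 under NPAT siRNA and 7.64 and 7.55 under CASP8AP2 siRNA, a difference of -3.12 ± 0.19 (adjusted p = 1.4e-06). C3, the central complement component, read 4.74 and 5.05 under NPAT siRNA and 7.29 and 7.47 under CASP8AP2 siRNA (-2.49 ± 0.29, adjusted p = 0.00044). ALOX5AP, which serves leukotriene synthesis, read 5.27 and 5.63 under NPAT siRNA and 7.42 and 7.39 under CASP8AP2 siRNA (-1.96 ± 0.22, adjusted p = 0.00044). KCNJ15, a potassium channel, read 4.12 and 4.35 under NPAT siRNA and 6.16 and 6.10 under CASP8AP2 siRNA (-1.90 ± 0.10, adjusted p = 4.2e-07). Against control, the log2 fold changes under NPAT siRNA were 0.37 for CCNA1, -0.02 for C3, -0.56 for ALOX5AP and 0.37 for KCNJ15, and of these 4 only KCNJ15 was called (adjusted p = 0.049), a call lost without any 1 of the 4 arrays (0.26 to 0.49, adjusted p = 0.072 to 0.29).

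Fewer genes were higher under NPAT siRNA than under CASP8AP2 siRNA, and by less. LOXL3, a lysyl oxidase, read 6.11 and 6.41 under NPAT siRNA and 5.41 and 5.44 under CASP8AP2 siRNA (0.84 ± 0.12, adjusted p = 0.0023). NRXN3, a neurexin, differed by 0.68 ± 0.14 (adjusted p = 0.026), and COL8A1 by 0.67 ± 0.10 (adjusted p = 0.0030). DHRS3 was also higher, by 0.67 ± 0.13 (adjusted p = 0.013), with log2 fold changes against control of -1.59 under CASP8AP2 siRNA and -0.92 under NPAT siRNA. The call of COL8A1 was lost without NPAT siRNA replicate 1 (0.55, adjusted p = 0.059), that of DHRS3 without CASP8AP2 siRNA replicate 1, NPAT siRNA replicate 1 or NPAT siRNA replicate 2 (0.54 to 0.72, adjusted p = 0.078 to 0.13), and that of NRXN3 without any 1 of the 4 arrays (0.56 to 0.80, adjusted p = 0.060 to 0.19). Leaving out each of the 4 arrays in turn gave between 157 (without RPE1 NPAT siRNA replicate 1) and 256 (without RPE1 CASP8AP2 siRNA replicate 1) called genes in this comparison.

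NPAT siRNA against HINFP siRNA gave 801 called genes (3.63%), of which 455 were higher and 346 lower under NPAT siRNA. With each array centred on its median the split was 373 higher and 393 lower, so no direction is read from it. H1F0 differed the most among named genes. It read 7.78 and 8.08 under NPAT siRNA and 6.11 and 5.79 under HINFP siRNA, a difference of 1.98 ± 0.16 (adjusted p = 2.9e-05), and against control it was 1.34 under NPAT siRNA, 1.99 under CASP8AP2 siRNA and -0.64 under HINFP siRNA. MCAM differed by 1.31 ± 0.10 (adjusted p = 2.9e-05) and FST by 1.06 ± 0.10 (adjusted p = 0.00018), both higher under NPAT siRNA. HINFP itself read 6.16 and 6.23 under its own siRNA and was higher under NPAT siRNA by 0.89 ± 0.15 (adjusted p = 0.0069). NPAT differed by -1.31 ± 0.11 (adjusted p = 4.9e-05). The call of HINFP was lost without NPAT siRNA replicate 1 or HINFP siRNA replicate 1 (0.85 to 0.90, adjusted p = 0.062 to 0.082), and leaving out each of the 4 arrays in turn gave between 117 (without RPE1 HINFP siRNA replicate 1) and 505 (without RPE1 HINFP siRNA replicate 2) called genes.

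CA9 stood lower under NPAT siRNA than under either of the other siRNAs. It read 9.84 and 9.93 under CASP8AP2 siRNA and 9.72 and 9.89 under HINFP siRNA, so that the difference was -1.57 ± 0.18 (adjusted p = 0.00045) from the first and -1.49 ± 0.18 (adjusted p = 0.0010) from the second. MXI1, an antagonist of MYC, read 7.40 and 7.23 under NPAT siRNA, 8.06 and 8.10 under CASP8AP2 siRNA and 8.20 and 8.15 under HINFP siRNA, with a difference of -0.86 ± 0.09 from HINFP siRNA (adjusted p = 0.00035). ADAMTS14, a procollagen protease, read 4.98 and 5.24 under NPAT siRNA against 6.00 and 5.90 under HINFP siRNA (-0.84 ± 0.11, adjusted p = 0.0016). MXI1 and ADAMTS14 were not called against control under NPAT siRNA (-0.21 ± 0.09 (SE), adjusted p = 0.22, and 0.14 ± 0.11 (SE), adjusted p = 0.53).

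The genes that follow were picked for their change against control, which rests on the same NPAT siRNA arrays as the comparisons between siRNAs. Side by side against the shared controls, CYP1B1 had log2 fold changes of -1.79 under NPAT siRNA, -0.97 under CASP8AP2 siRNA and -1.05 under HINFP siRNA, and its level under NPAT siRNA differed from that under CASP8AP2 siRNA by -0.82 ± 0.16 (adjusted p = 0.015) and from that under HINFP siRNA by -0.74 ± 0.16 (adjusted p = 0.021). The first call was lost without CASP8AP2 siRNA replicate 2 or NPAT siRNA replicate 1 (-0.70 to -0.69, adjusted p = 0.17 to 0.18), and the second without any 1 of the 4 arrays (-0.86 to -0.62, adjusted p = 0.057 to 0.20). PMAIP1 gave 1.01 under NPAT siRNA, 1.08 under CASP8AP2 siRNA and 0.46 under HINFP siRNA. Here NPAT siRNA and CASP8AP2 siRNA differed by -0.07 ± 0.12 (adjusted p = 0.89), and NPAT siRNA and HINFP siRNA by 0.55 ± 0.12 (adjusted p = 0.020), a call lost without NPAT siRNA replicate 1, NPAT siRNA replicate 2 or HINFP siRNA replicate 2 (0.34 to 0.56, adjusted p = 0.099 to 0.14). Of the replication genes called against control, RRM2 was higher under NPAT siRNA than under HINFP siRNA by 0.70 ± 0.11 (adjusted p = 0.0041), CLSPN by 0.75 ± 0.12 (adjusted p = 0.0051), EXO1 by 0.84 ± 0.11 (adjusted p = 0.0016) and CDC6 by 0.61 ± 0.09 (adjusted p = 0.0030). From CASP8AP2 siRNA the same genes differed by 0.18 ± 0.11 (adjusted p = 0.55), 0.31 ± 0.12 (adjusted p = 0.25), 0.33 ± 0.11 (adjusted p = 0.17) and 0.28 ± 0.09 (adjusted p = 0.14), none of which was called. The call against HINFP siRNA was lost for RRM2 without NPAT siRNA replicate 1 or HINFP siRNA replicate 1 (0.54 to 0.67, adjusted p = 0.054 to 0.058), for CLSPN without NPAT siRNA replicate 1 or HINFP siRNA replicate 1 (0.61 to 0.67, adjusted p = 0.067 to 0.080) and for CDC6 without HINFP siRNA replicate 1 (0.52, adjusted p = 0.051), and it was kept for EXO1. SNAI1 read 8.39 and 8.31 under CASP8AP2 siRNA, from which NPAT siRNA differed by -1.05 ± 0.13 (adjusted p = 0.00079). Under HINFP siRNA SNAI1 read 7.47 and 7.30, with a log2 fold change against control of -0.76, and NPAT siRNA differed from it by -0.08 ± 0.13 (adjusted p = 0.85).

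**Figure D4:**
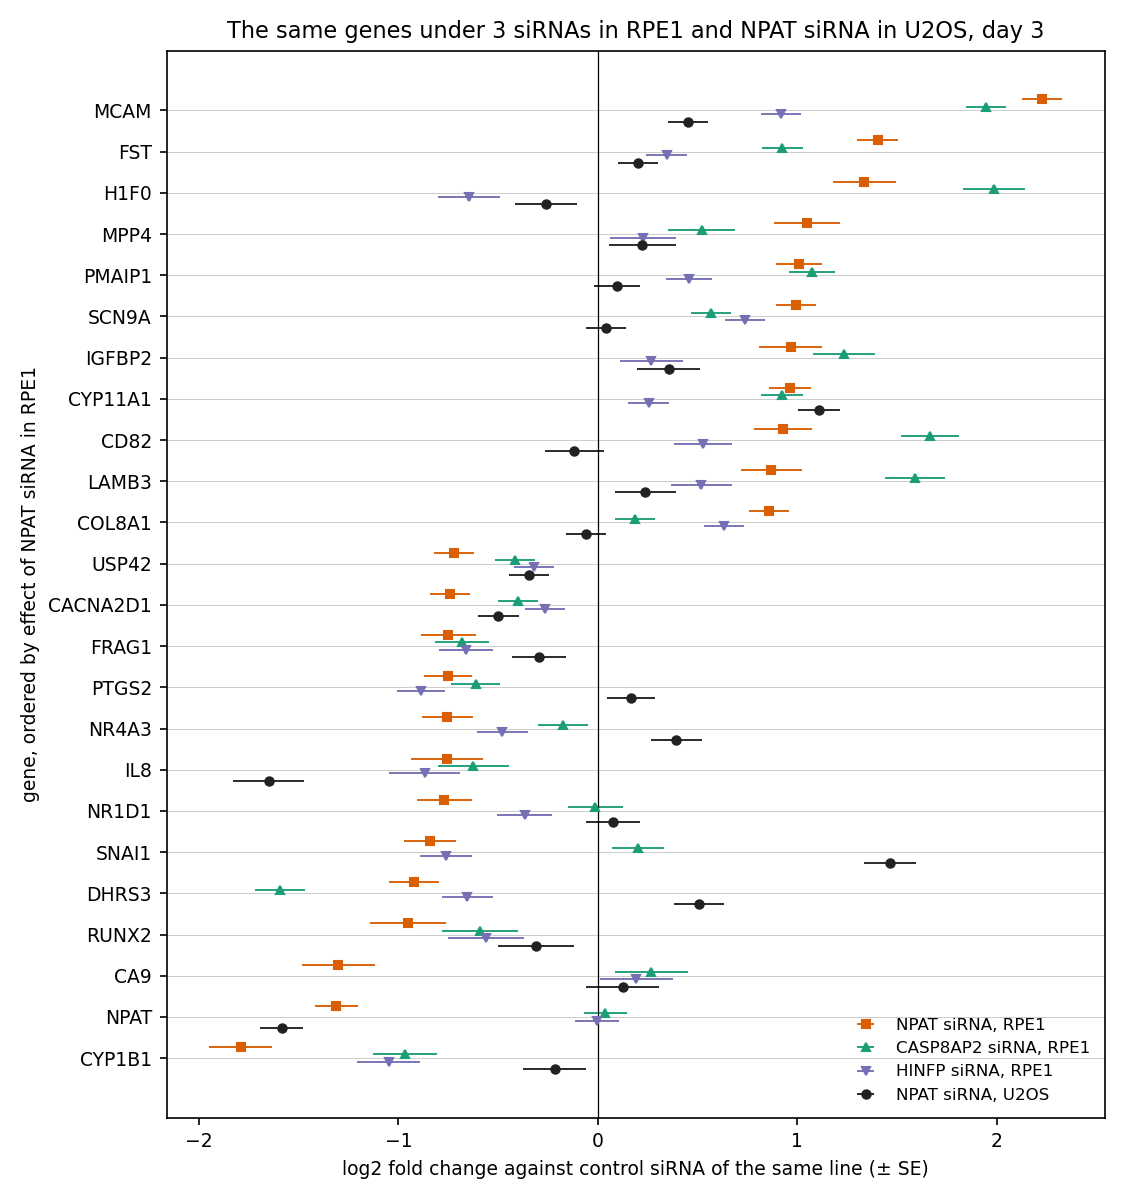
Log2 fold change against control siRNA of the same line on day 3 (horizontal axis, with bars of 1 SE) for NPAT and 23 of the 24 named rises and falls, under NPAT siRNA (squares), CASP8AP2 siRNA (upward triangles) and HINFP siRNA (downward triangles) in hTERT-RPE1 cells and NPAT siRNA in U2OS cells (circles). CA9 lies within 0.27 of 0 in the other comparisons. SNAI1 and DHRS3, called in both lines, lie on opposite sides of 0 under NPAT siRNA in the 2 lines. So do further genes that were not called in U2OS cells, among them H1F0, NR4A3, PTGS2, CD82 and CA9.

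In U2OS cells the same siRNA pool also lowered NPAT. It read 8.65 and 8.59 in U2OS control arrays and 6.92 and 7.15 with NPAT siRNA, a difference of -1.59 ± 0.11 (adjusted p = 4.8e-06), and the effect in U2OS minus that in hTERT-RPE1 was -0.27 ± 0.15, adjusted p = 0.35. This difference between the lines (an interaction term) was called for 764 genes (3.46%), 412 higher and 352 lower in U2OS. With each array centred on its median the split was 285 higher and 486 lower, so no direction is read from it. Leaving out each of the 8 arrays in turn gave between 153 (without RPE1 NPAT siRNA replicate 1) and 874 (without RPE1 control replicate 1) called genes.

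Several of the leading rises of hTERT-RPE1 cells had a lower effect in U2OS cells. MCAM read 9.43 and 9.48 in U2OS control arrays and 9.89 and 9.93 with NPAT siRNA, and its effect differed by -1.78 ± 0.14, adjusted p = 5.3e-05. H1F0 read 11.63 and 11.74 in U2OS control arrays and 11.44 and 11.40 with NPAT siRNA (-1.60 ± 0.22, adjusted p = 0.0026), and FST read 9.55 and 9.52 in U2OS control arrays and 9.73 and 9.74 with NPAT siRNA (-1.20 ± 0.14, adjusted p = 0.00097). U2OS controls already had higher levels of these 3 genes than hTERT-RPE1 controls. PMAIP1 read 10.15 and 10.10 in U2OS control arrays and 10.27 and 10.17 with NPAT siRNA (-0.91 ± 0.16, adjusted p = 0.012), and this call was lost without RPE1 NPAT siRNA replicate 1, U2OS control replicate 1 or U2OS NPAT siRNA replicate 2 (-0.90 to -0.86, adjusted p = 0.051 to 0.061). CYP11A1, in contrast, rose in both lines, by 1.11 in U2OS cells, with a difference between the lines of 0.14 ± 0.15, adjusted p = 0.65.

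Falls differed as well. SNAI1 read 7.45 and 7.52 in U2OS control arrays and 8.99 and 8.91 with NPAT siRNA, a rise of 1.47 ± 0.13 (adjusted p = 3.1e-05), against the fall in hTERT-RPE1 cells, and the effects differed by 2.31 ± 0.19, adjusted p = 5.3e-05. DHRS3 rose in U2OS cells by 0.51 ± 0.13 (adjusted p = 0.027) and the effects differed by 1.43 ± 0.18, adjusted p = 0.0012. The rise of DHRS3 in U2OS cells was lost without control replicate 1, NPAT siRNA replicate 1 or NPAT siRNA replicate 2 (0.33 to 0.57, adjusted p = 0.069 to 0.27). CYP1B1 was near the bottom of the scale in U2OS cells (3.66 and 3.80 in U2OS control arrays and 3.47 and 3.57 with NPAT siRNA), where a fall can hardly be seen, and the effects differed by 1.57 ± 0.22, adjusted p = 0.0031. IL8 also fell in U2OS cells (-1.65 ± 0.18, adjusted p = 0.00015), and the difference between the lines was -0.89 ± 0.25, adjusted p = 0.073. ZNF280A (1.99 ± 0.22, adjusted p = 0.00054), KLK6 (1.46 ± 0.30, adjusted p = 0.021) and BIRC3 (-1.16 ± 0.22, adjusted p = 0.017) also differed between the lines, and none of them was called in hTERT-RPE1 cells (-0.27 ± 0.16, -0.65 ± 0.21 and -0.30 ± 0.16). The call of KLK6 was lost without any 1 of the 8 arrays but RPE1 control replicate 1, RPE1 control replicate 2 and U2OS control replicate 2 (1.33 to 1.53, adjusted p = 0.058 to 0.091), and that of BIRC3 without RPE1 NPAT siRNA replicate 1, U2OS control replicate 1 or U2OS NPAT siRNA replicate 1 (-1.13 to -0.98, adjusted p = 0.064 to 0.082).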

How the data were processed

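Total RNA of the arrays was purified with RNeasy and hybridised to Affymetrix Human WT arrays, whose number limits the precision. The authors processed them in Bioconductor with affy and a custom probe grouping by Ensembl gene, and RMA is named in the submitters' processing notes. The deposited values are log2 levels, normalized between arrays, so a change in total RNA per cell cannot be seen. Genome build and grouping version are not given in the sources used here.

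Values were used without further normalization or filter. A limma 3.58.1 fit in R 4.3.3 (lmFit, eBayes, default settings) gave each of the 8 groups of the 16 arrays of day 3 a mean and shared their spread (8 residual degrees of freedom). Days 1 and 2, whose values look normalized separately, were left out. Tests were two-sided with Benjamini-Hochberg adjustment over 22069 genes, and an adjusted p under 0.05 was a call. The fit was tested on simulated data.

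Named genes were the 12 largest rises and falls among called genes with a symbol, NPAT left out; NPAT, CASP8AP2 and HINFP; up to 4 called and 3 uncalled members of each list; and the 4 largest differences each way in the other contrasts. Members and lists were chosen with earlier results of these data known. Symbols came from the authors' screen tables as written there, and 4 identifiers paired with more than 1 gene were left unnamed. ATM was not analysed here, and 1 of the 12 rises and some uncalled list members are not reported here. Alternatives are given in the closing section; leaving out U2OS arrays for the effect within U2OS was chosen after seeing the data.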

Additional observations from a re-analysis of the deposited data

Results flagged for a closer look

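Of the genes named by the rule, 27 had effects of NPAT siRNA that differed between the 2 lines on day 3, by the interaction term of the limma fit at an adjusted p under 0.05, 15 of them lower in U2OS and 12 higher. Each is given as the log2 effect in U2OS minus that in hTERT-RPE1, followed by the effect in U2OS and that in hTERT-RPE1 from which it comes. The effect was lower in U2OS for ENSG00000130513 (-5.32, from 0.66 and 5.98), MCAM (-1.78, from 0.45 and 2.23), H1F0 (-1.60, from -0.26 and 1.34), ENSG00000124635 (-1.50, from 1.37 and 2.87) and FST (-1.20, from 0.20 and 1.40). Further such genes were BIRC3 (-1.16, from -1.46 and -0.30), CD82 (-1.05, from -0.12 and 0.93), HAS2 (-0.96, from -0.32 and 0.63), SCN9A (-0.95, from 0.04 and 0.99) and COL8A1 (-0.91, from -0.06 and 0.86). Further such genes were PMAIP1 (-0.91, from 0.10 and 1.01), NRXN3 (-0.80, from -0.41 and 0.39), FDFT1 (-0.57, from -0.35 and 0.22), CDC6 (-0.55, from -0.18 and 0.37) and POLH (-0.51, from -0.12 and 0.39). The effect was higher in U2OS for SNAI1 (2.31, from 1.47 and -0.84), ZNF280A (1.99, from 1.72 and -0.27), CYP1B1 (1.57, from -0.22 and -1.79), KLK6 (1.46, from 0.81 and -0.65) and ENSG00000170345 (1.44, from 0.16 and -1.28). Further such genes were DHRS3 (1.43, from 0.51 and -0.92), CA9 (1.42, from 0.12 and -1.30), DKK1 (1.40, from 1.81 and 0.41), NR4A3 (1.15, from 0.39 and -0.75) and PTGS2 (0.92, from 0.17 and -0.75). Further such genes were NR1D1 (0.85, from 0.08 and -0.77) and RARA (0.69, from 0.22 and -0.47). CA9 read 5.16 and 5.01 in U2OS control arrays, just under the median level of all genes in hTERT-RPE1 controls (5.25). Its own level in hTERT-RPE1 control arrays was 9.88 and 9.35. Whether the lower start in U2OS cells bears on the difference between the lines was not tested. SCN9A (4.25 and 4.30) and COL8A1 (4.57 and 4.74) read lower still in U2OS control arrays.

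Several of these calls rested on single arrays, beside those given above. The call of CD82 was lost without RPE1 NPAT siRNA replicate 1, RPE1 NPAT siRNA replicate 2, U2OS control replicate 2 or U2OS NPAT siRNA replicate 1 (-1.11 to -0.84, adjusted p = 0.062 to 0.067). That of HAS2 was lost without any 1 of the 8 arrays but RPE1 control replicate 2 and U2OS NPAT siRNA replicate 2 (-1.08 to -0.71, adjusted p = 0.074 to 0.17). The call of NRXN3 was lost without any 1 of the 8 arrays but RPE1 control replicate 1 (-0.90 to -0.56, adjusted p = 0.082 to 0.16). That of FDFT1 was lost without any 1 of the 8 arrays but RPE1 control replicate 1, RPE1 control replicate 2 and U2OS NPAT siRNA replicate 2 (-0.60 to -0.51, adjusted p = 0.056 to 0.090). The call of CDC6 was lost without any 1 of the 8 arrays (-0.59 to -0.52, adjusted p = 0.055 to 0.13). That of POLH was lost without any 1 of the 8 arrays but RPE1 control replicate 1 (-0.55 to -0.47, adjusted p = 0.051 to 0.095). The call of RARA was lost without U2OS control replicate 1 (0.61, adjusted p = 0.051). That of NR1D1 was lost without any 1 of the 8 arrays but RPE1 control replicate 2 and RPE1 NPAT siRNA replicate 2 (0.64 to 0.93, adjusted p = 0.063 to 0.15). The call of PTGS2 was lost without RPE1 NPAT siRNA replicate 1, U2OS control replicate 2 or U2OS NPAT siRNA replicate 2 (0.81 to 0.88, adjusted p = 0.053 to 0.077). That of CA9 was lost without RPE1 NPAT siRNA replicate 1 or U2OS NPAT siRNA replicate 1 (1.29 to 1.30, adjusted p = 0.052 to 0.072). Groups of 2 arrays are too small to look for a single array that stands apart, and this was not done.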

How the results depend on the processing

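Of 46 named genes called in the comparison with control, 19 kept the call in every alternative tried. None of the 120 named genes had a call that reversed. Genes that were not called could change sign, as MCM3 did (-0.12 to 0.12). Among the 24 named rises and falls, 14 kept the call in every alternative. Centring or cyclic loess lost none of these 46 calls. Fitting the 4 arrays alone lost 26 of the 46 calls, and leaving out NPAT siRNA replicate 1 lost 25. The cause was not tested.

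Against control, 1112 genes became 149 where the 4 arrays compared were fitted alone, 622 with the 8 RPE1 arrays, 2477 with all 40 arrays, 76 where a change of at least 1 was also required, and 235 to 875 with 1 array left out. Against CASP8AP2 siRNA, 525 became 241, 293, 1272 and 83 under the same settings, and 157 to 256 with 1 array left out. Against HINFP siRNA, 801 became 154, 413, 1935 and 45, and 117 to 505. For the difference between the lines, 764 became 455 where those 8 arrays were fitted alone, 2131 with all 40 arrays, 170 at a change of at least 1, and 153 to 874 with 1 array left out.

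The replicate numbers did not show a pairing of NPAT siRNA with control: the deviations of same-numbered arrays had r = 0.04. Over 28 pairs of groups r lay between -0.12 and 0.21, and it was over 0.1 in 9 of them. With the replicate block, 1070, 473, 774 and 655 genes were called in the 4 comparisons, and 2 of the 46 named calls were lost, those of EBP (adjusted p = 0.060) and KCNJ15 (adjusted p = 0.056). The block also ended the calls of EGR2 (adjusted p = 0.067), FOSL1 (adjusted p = 0.055), BMP1 (adjusted p = 0.057) and HBEGF (adjusted p = 0.055) described below. It ended the differences between the lines of NR1D1 (adjusted p = 0.050) and NRXN3 (adjusted p = 0.073), the latter also lost with cyclic loess (adjusted p = 0.065). With 2 arrays a group, small changes are near the limit of what these data can call.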

Other observations

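Falls outside the gene lists included genes known to answer serum and growth factors. They were picked out from the falls after their values were seen and so carry no test as a set. HBEGF (0.36) and ODC1 (0.55), also known to answer growth factors, were called higher. Neither of these rises was called where the 4 arrays were fitted alone (adjusted p = 0.17 and 0.11). SRF, the serum response factor, read 9.85 and 9.69 in the control arrays and 9.04 and 9.12 in the NPAT siRNA arrays (-0.69 ± 0.09 (SE), adjusted p = 0.00070). EGR2, an early zinc finger factor, read 5.70 and 5.86 in the control arrays and 5.20 and 5.44 in the NPAT siRNA arrays (-0.46 ± 0.12 (SE), adjusted p = 0.049). FOSL1, an AP-1 subunit, read 10.53 and 10.25 in the control arrays and 9.84 and 10.05 in the NPAT siRNA arrays (-0.44 ± 0.12 (SE), adjusted p = 0.046), and ELK4, a partner of SRF, read 9.23 and 9.02 in the control arrays and 8.72 and 8.75 in the NPAT siRNA arrays (-0.39 ± 0.10 (SE), adjusted p = 0.035). PER1, a circadian repressor with an early response to serum, read 6.39 and 6.59 in the control arrays and 5.84 and 6.06 in the NPAT siRNA arrays (-0.54 ± 0.14 (SE), adjusted p = 0.041). SRF kept its call without any 1 of the 4 arrays but not where the 4 arrays were fitted alone (adjusted p = 0.056). The call of EGR2 was lost without any 1 of the 4 arrays (-0.58 to -0.34, adjusted p = 0.068 to 0.33); that of FOSL1 without control replicate 1, NPAT siRNA replicate 1 or NPAT siRNA replicate 2 (-0.55 to -0.30, adjusted p = 0.070 to 0.31); that of ELK4 without control replicate 1, NPAT siRNA replicate 1 or NPAT siRNA replicate 2 (-0.40 to -0.28, adjusted p = 0.12 to 0.19); and that of PER1 without any 1 of the 4 arrays (-0.65 to -0.42, adjusted p = 0.057 to 0.28). Cyclic loess normalization also ended the calls of EGR2 (adjusted p = 0.080), FOSL1 (adjusted p = 0.053) and PER1 (adjusted p = 0.053).

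SMAD1 and BMP6, of BMP signalling, and BMP1 were also among the falls. They were likewise picked out from the falls after their values were seen. ID1 (0.10 ± 0.18 (SE), adjusted p = 0.83) and SMAD7 (-0.31 ± 0.11 (SE), adjusted p = 0.14), known to answer BMP signals, were not called. SMAD1, a transducer of BMP signals, read 8.26 and 8.26 in the control arrays and 7.92 and 7.55 in the NPAT siRNA arrays (-0.53 ± 0.12 (SE), adjusted p = 0.029). BMP6, a ligand, read 6.34 and 6.47 in the control arrays and 5.88 and 6.10 in the NPAT siRNA arrays (-0.41 ± 0.10 (SE), adjusted p = 0.029), and BMP1, a procollagen protease that is no BMP ligand, read 8.32 and 8.34 in the control arrays and 7.95 and 8.04 in the NPAT siRNA arrays (-0.34 ± 0.08 (SE), adjusted p = 0.039). The call of SMAD1 was lost without control replicate 1, control replicate 2 or NPAT siRNA replicate 2 (-0.53 to -0.34, adjusted p = 0.085 to 0.21); that of BMP6 without control replicate 2 or NPAT siRNA replicate 1 (-0.35 to -0.30, adjusted p = 0.13 to 0.25); and that of BMP1 without any 1 of the 4 arrays (-0.38 to -0.29, adjusted p = 0.090 to 0.25). Among other rises picked out in the same way, MYBL2, a factor of late cell cycle genes, read 9.24 and 9.24 in the control arrays and 9.83 and 9.83 in the NPAT siRNA arrays (0.59 ± 0.08 (SE), adjusted p = 0.0012), and it kept its call without any 1 of the 4 arrays but not where the 4 arrays were fitted alone (adjusted p = 0.065). IL18, a cytokine, read 3.11 and 3.39 in the control arrays and 4.11 and 3.90 in the NPAT siRNA arrays (0.75 ± 0.18 (SE), adjusted p = 0.034), and its call was lost without any 1 of the 4 arrays (0.62 to 0.89, adjusted p = 0.051 to 0.23).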
